A study of Mus musculus with 4 samples.

Results

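Antigen presentation genes were measured in laser-captured spinal motor neurons of mice carrying human SOD1 fused to yellow fluorescent protein (YFP), SOD1 being the superoxide dismutase mutated in some inherited forms of amyotrophic lateral sclerosis. The genes comprised every entry whose symbol begins with H2- (the mouse major histocompatibility complex, MHC), leaving out H2-Ke2 and H2-Ke6, which only carry the prefix, together with B2m, Tap1, Tap2 and Tapbp. They came to 39 of the 27189 entries of each expression table and to 38 symbols, because H2-Q1 has 2 entries. By role they were 2 classical class I genes, 23 non-classical class I genes, 9 class II genes, 4 genes of the light chain and of peptide loading, and H2-GS14, which was given no role.

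RNA was compared between 2 libraries of the wild-type SOD1-YFP strain 592 and 2 libraries of the G85R SOD1-YFP strain 737, each from 1 mouse at 3 months of age. Both groups carry a human SOD1 genomic fragment with its own promoter on a C57BL/6J and SJL/J background, and both make a YFP fusion, so that no group lacks a transgene. The G85R strain is homozygous for its insertion and carries many more transgene copies, so the mutation, the copy number and the strain cannot be told apart here. Cell bodies were cut from Azure B-stained ventral horn, those holding large aggregates were passed over, and polyadenylated RNA was sequenced. The transgene itself was not quantified here.

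MHC class I molecules display peptides from inside the cell at its surface, where T cells and natural killer cells read them. A heavy chain, encoded by H2-K1, H2-D1 or a non-classical gene, folds with the invariant light chain beta-2-microglobulin (B2m) in the endoplasmic reticulum, and Tap1, Tap2 and Tapbp (tapasin) deliver and load the peptide. Class II molecules carry peptides from endocytosed protein and belong to professional antigen-presenting cells. Neurons are known for low class I levels that interferon can raise, and motor neurons are among those in which heavy chain and B2m transcripts have been detected. The heavy chain genes are highly polymorphic between mouse strains. C57BL/6 carries H2 haplotype b and SJL carries haplotype s, whereas the reads were mapped to the C57BL/6J sequence. The haplotype of each mouse was not given in the sources used here, and its part in the values was not tested.

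Stretches of 30 bases from the promoters of H2-D1 and H2-T23, of the 3 genes that passed the test (B2m, H2-M3 and H2-DMa), and of H2-K1 and H2-Q7, which with H2-D1 hold both motifs, are shown because transcription of classical class I genes is known to run through a compact enhancer with an NF-kB site and an interferon response site. They were taken from RefSeq on GRCm38.p6, a later build than the mapping reference, within 250 bases before to 50 after each start site. Capitals mark matches to the searched letters, GGGANTCCC for the NF-kB type and GAANNGAAA or AAANNGAAA for the interferon type, on either strand.
H2-K1: GGGATTCCCcatctccacagTTTCACTTCt
H2-D1: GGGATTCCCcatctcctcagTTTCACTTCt
H2-Q7: gGGGATTCCCatctccccagTTTCACTTCt
B2m: taagaacatgAAACTGAAAatgggaaagtc
H2-T23: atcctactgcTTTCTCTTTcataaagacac
H2-M3: tcctctgaggTTTCACTTCtctgtaactct
H2-DMa: ttttttttttTTTCTTTTTttggtttttca
These lie at chr17:34000428-34000457 (minus strand) for H2-K1, chr17:35262924-35262953 (plus) for H2-D1, chr17:35439022-35439051 (plus) for H2-Q7, chr2:122147539-122147568 (plus) for B2m, chr17:36032806-36032835 (minus) for H2-T23, chr17:37270123-37270152 (plus) for H2-M3 and chr17:34125483-34125512 (plus) for H2-DMa. The match of H2-DMa stands in a run of T. The stretches of H2-K1 and H2-D1 differed at 1 of 30 bases. A promoter was at hand for 29 of the 38 symbols, of which 12 held an interferon type match and 3 held the NF-kB type, namely H2-K1, H2-D1 and H2-Q7. Over all 32851 promoters, 16.5% held an interferon type match in either spacing, 0.767% the NF-kB type and 0.0883% both. A match is a description of these letters only.

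Values are RPKM, that is, reads scaled by transcript length and by the mapped reads of the library. The 4 libraries held between 21560318 and 25186594 reads assigned to genes, estimated from the files, and 1 read was worth a median of 0.0195 to 0.0226 RPKM. Genotypes were compared with limma on log2(RPKM + 0.1) over the 11530 entries with a mean RPKM of at least 1, with Benjamini-Hochberg adjustment and an adjusted p under 0.05 as the threshold. Of the 39 antigen presentation entries, 11 reached that level and 28 did not. An entry could pass on the strength of the genotype in which it was higher.

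Of the 11 tested genes, B2m was higher in G85R, H2-M3 and H2-DMa were lower, and the other 8 did not pass. Over all tested entries 0.642% passed, 0.269% as higher and 0.373% as lower. The genotypes did not overlap for 7 of the 11 genes (5 higher and 2 lower in G85R), as against 41.2% of all tested entries. H2-Eb1, counted among the 5, reached the level for testing only through G85R, with a mean of 0.98 RPKM in wild-type and 1.41 in G85R. Of the 10 tested genes in the MHC interval of chromosome 17, 60% did not overlap. The share was 52% for the 75 other tested entries of that interval. An unadjusted p under 0.05 was found for 5 of the 11, against 11.0% of all tested entries. The median log2 fold change was 0.27 over the 11 genes and -0.02 over all tested entries. The first of these depended on the wild-type library kept, at 0.03 without wild-type replicate 1 and 0.51 without wild-type replicate 2. A test of 2 against 2 by exact permutation cannot go below p = 0.333, so each result rests on the spread that limma estimates across genes.

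**Figure D1:**
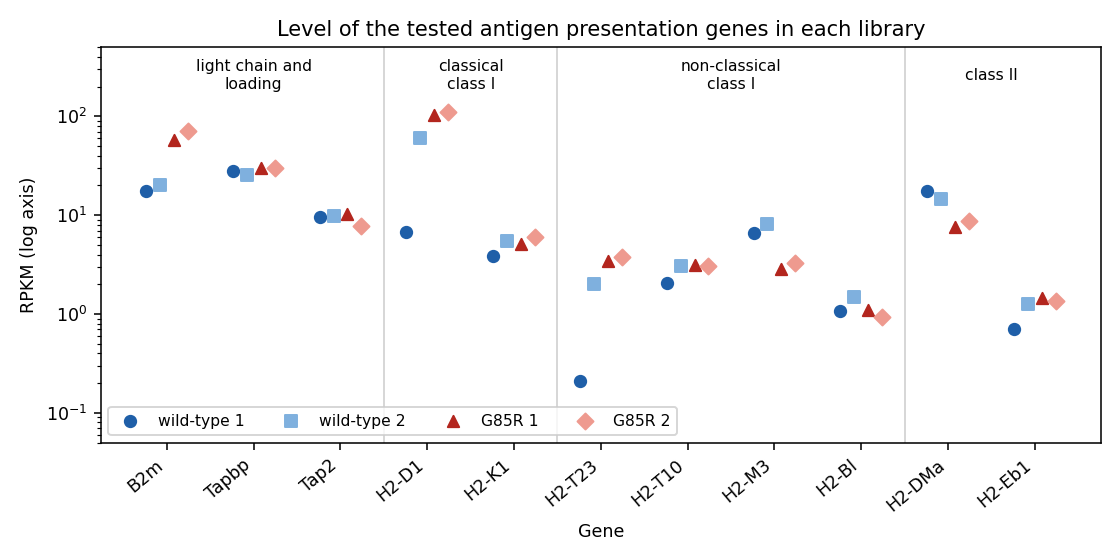
RPKM (log axis) of the 11 tested genes in each of the 4 libraries, arranged by role, one point per library. B2m is separated by genotype, at 17.7 and 20.0 in wild-type against 58.4 and 70.8 in G85R, whereas wild-type 1 stands far below the other 3 libraries for H2-D1 and H2-T23.

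B2m (Entrez Gene 12010), the light chain shared by nearly all class I molecules, lies on the plus strand of chromosome 2 (NCBIM37, 121973422 to 121978819), away from the MHC. It measured 17.7 RPKM in wild-type 1, 20.0 in wild-type 2, 58.4 in G85R 1 and 70.8 in G85R 2, from an estimated 585, 699, 1760 and 2266 reads. The genotypes did not overlap. The wild-type libraries differed by 0.17 on the log2 scale and the G85R libraries by 0.28, the latter wider than in 85.3% of 2674 tested entries within 2-fold of its mean level (median 0.11). The mean rose 3.43-fold, from 18.9 ± 1.57 in wild-type to 64.6 ± 8.77 in G85R (SD, n = 2 libraries), with a log2 fold change of 1.77 (SE 0.13, limma adjusted p = 0.00256). With any 1 library left out, the log2 fold change stayed between 1.63 and 1.91. It did not pass when no filter on low values was used (limma adjusted p = 0.254). No 75-base window of its transcripts occurs elsewhere in NCBIM37, either exactly or, in the MHC interval, with up to 2 mismatches. The annotation places Patl2 across the whole gene on the opposite strand, and strand was not kept in these values.

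Of the peptide loading genes, none passed the test. Tapbp, tapasin, which bridges the heavy chain to the peptide transporter, measured 27.8 and 25.5 RPKM in wild-type against 30.2 and 30.4 in G85R. Its genotypes did not overlap, but the log2 fold change was only 0.19 (SE 0.11, limma adjusted p = 0.596). Zbtb22, at 10.2 to 11.4 RPKM, overlaps 3421 bases of Tapbp on the same strand. Tap2, one half-transporter of the peptide pump, measured 9.59 and 9.79 in wild-type against 10.3 and 7.79 in G85R, with a log2 fold change of -0.11 (SE 0.16, limma adjusted p = 0.881). These values overlapped, and the sign turned, to 0.085, without G85R replicate 2. Tap1, its partner, stayed under the level for testing at 0.351, 0.217, 0.562 and 0.409, estimated from 16 to 36 reads per library. Both G85R values of Tap1 lay above both wild-type values, but the gene was too low to be tested.

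H2-D1 (Entrez Gene 14964), a classical heavy chain gene, was the most abundant of the 39 entries by its mean of 70.7 RPKM. It measured 6.75 RPKM in wild-type 1, 60.1 in wild-type 2, 104 in G85R 1 and 112 in G85R 2, from an estimated 150, 1416, 2112 and 2402 reads. Both G85R libraries were above both wild-type libraries, but the wild-type libraries differed from each other by 3.14 on the log2 scale, as against 0.10 between the G85R libraries. Among 1745 tested entries within 2-fold of its mean level, 99.9% had wild-type libraries that lay closer together, and their median difference was 0.14. Wild-type averaged 33.4 ± 37.7 RPKM and G85R averaged 108 ± 5.23 (SD, n = 2 libraries). The log2 fold change between genotypes was 2.41 (SE 0.85, limma adjusted p = 0.369) and did not pass. Without wild-type replicate 1 it was 0.84, and without wild-type replicate 2 it was 3.98. Its size thus depended on which wild-type library was kept. With 1 wild-type library left, the difference of 3.14 between the wild-type mice does not enter the test, so no p is given for these fits. A log-linear likelihood ratio test that treats RPKM as counts called H2-D1 (adjusted p = 4.01e-16) and B2m (adjusted p = 8.84e-10), and no other gene of the 39, but it takes no account of the spread between mice.

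H2-K1 (Entrez Gene 14972), the other classical heavy chain gene, measured 3.87 and 5.44 RPKM in wild-type against 5.14 and 5.98 in G85R. The genotypes overlapped, and the log2 fold change was 0.27 (SE 0.19, limma adjusted p = 0.698). H2-D1 was therefore 1.74 times H2-K1 in wild-type 1, 11.1 times in wild-type 2, 20.3 times in G85R 1 and 18.7 times in G85R 2 by RPKM. Both genes lie on chromosome 17 of NCBIM37, H2-K1 on the minus strand from 34132962 to 34137278 and H2-D1 on the plus strand from 35399675 to 35404444. Of their 75-base transcript windows, 5.4% (H2-K1) and 5.5% (H2-D1) recur exactly elsewhere in the reference, and 22.1% and 17.7% recur in the MHC interval with up to 2 mismatches.

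**Figure D2:**
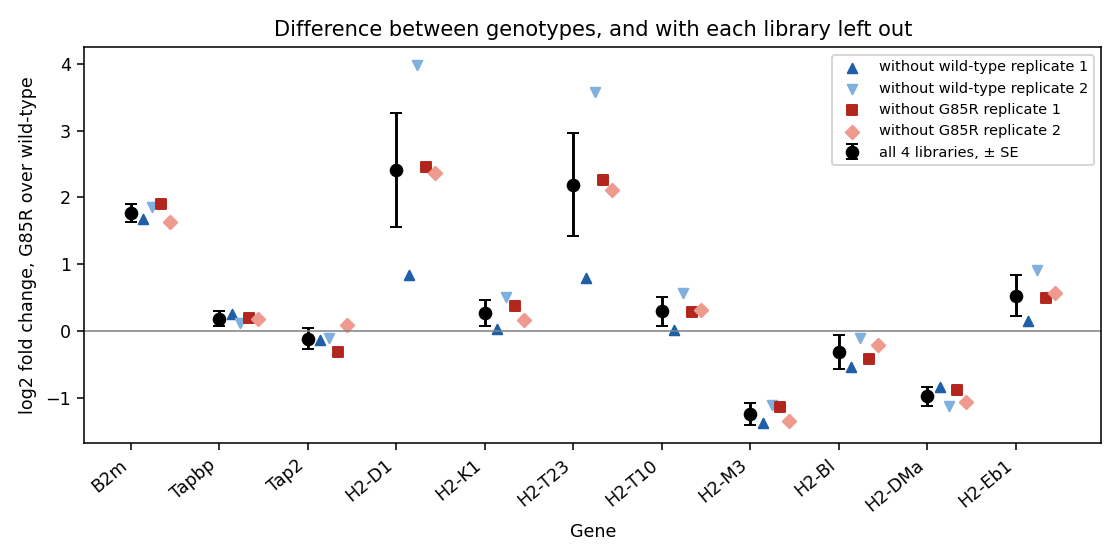
log2 fold change of each tested gene, G85R over wild-type, from all 4 libraries (black, ± SE) and with each library left out in turn (colors). B2m, H2-M3 and H2-DMa keep similar values throughout, whereas H2-D1 ranges from 0.84 to 3.98 and H2-T23 from 0.80 to 3.6 according to the wild-type library left out.

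Among the non-classical class I genes, H2-M3 passed as lower in G85R and the other 3 tested did not pass. H2-M3 (Entrez Gene 14991), which presents N-formylated peptides of bacteria and mitochondria, measured 6.67 and 8.06 RPKM in wild-type against 2.84 and 3.27 in G85R, from an estimated 278, 357, 108 and 132 reads. Wild-type was thus 2.41 times G85R with no overlap, at 7.37 ± 0.98 against 3.05 ± 0.30 (SD, n = 2 libraries). The log2 fold change was -1.24 (SE 0.16, limma adjusted p = 0.0300). It lost the call without wild-type replicate 2 (log2 fold change -1.11, limma adjusted p = 0.0690). The call was also lost in 5 other settings, namely eBayes without a trend (limma adjusted p = 0.0537), a minimum mean RPKM of 5 (0.0638), no filter (0.404), quantile normalization (0.0586) and the log-linear test. H2-M3 has little sequence in common with its relatives, since 0.0% of its windows recur exactly and 0.5% with up to 2 mismatches.

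H2-T23 (Entrez Gene 15040) encodes Qa-1, which shows signal peptides of other class I chains to natural killer cell receptors. It measured 0.209 RPKM in wild-type 1, 2.02 in wild-type 2, 3.41 in G85R 1 and 3.77 in G85R 2, from an estimated 9, 95, 138 and 162 reads. The order of the libraries was that of H2-D1, with wild-type 1 far below the rest. The log2 fold change was 2.19 (SE 0.77, limma adjusted p = 0.369). Without wild-type replicate 1 it was 0.80, and without wild-type replicate 2 it was 3.6. Of its windows, 16.4% recur exactly elsewhere and 46.0% with up to 2 mismatches in the MHC interval. Reads from such windows may be left out or divided between related genes, and this was not tested. The annotation also places A930015D03Rik across H2-T23 on the opposite strand, and BC023719 opposite 436 of its bases.

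H2-T10, a T-region gene whose product is recognized by gamma delta T cells, measured 2.06 and 3.09 RPKM in wild-type against 3.15 and 3.08 in G85R (log2 fold change 0.29, SE 0.22, limma adjusted p = 0.706). Of its windows, 65.6% recur with up to 2 mismatches, the most among the tested genes. H2-Bl measured 1.08 and 1.5 in wild-type against 1.09 and 0.931 in G85R (log2 fold change -0.32, SE 0.26, limma adjusted p = 0.740). Values of both genes overlapped between genotypes. H2-Bl lies opposite BC023719 on the other strand, and BC023719 also lies opposite 1246 bases of H2-T10. BC023719 measured 9.98 and 4.81 RPKM in wild-type and was listed at 0 in both G85R libraries.

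Summed over all 25 class I entries, heavy chain RNA came to 21.3 RPKM in wild-type 1, 82.1 in wild-type 2, 121 in G85R 1 and 130 in G85R 2. The mean of G85R was 2.42 times that of wild-type, 1.53 times without wild-type replicate 1 and 5.89 times without wild-type replicate 2. H2-D1 made up between 31.8% and 86.4% of the sum. Without H2-D1 the sums were 14.5, 22.0, 16.4 and 18.0, and the genotypes overlapped. The ratio of H2-D1 to B2m was 0.381 in wild-type 1, 3.01 in wild-type 2, 1.79 in G85R 1 and 1.58 in G85R 2, so that the low H2-D1 value of wild-type 1 had no counterpart in B2m.

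**Figure D3:**
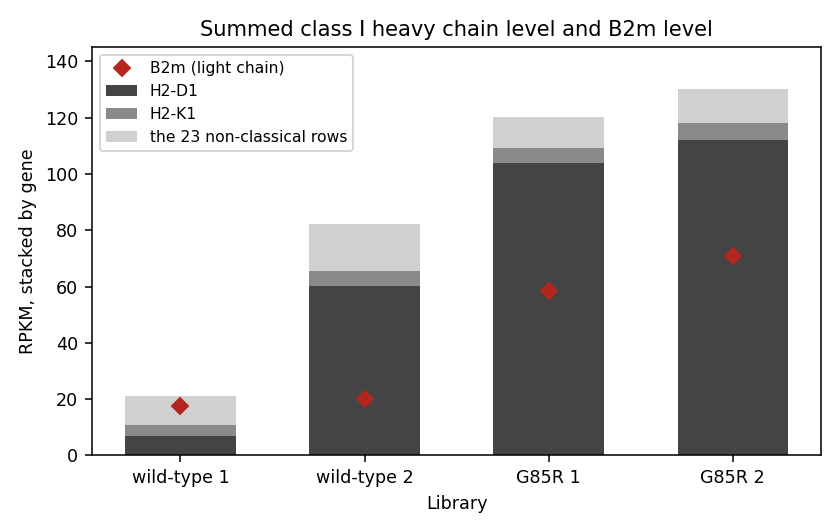
Summed RPKM of the class I heavy chain entries in each library, stacked as H2-D1, H2-K1 and the 23 non-classical entries, with B2m as diamonds. The difference between libraries is carried by H2-D1, and B2m is higher in both G85R libraries than in both wild-type libraries.

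Among the class II genes, H2-DMa passed as lower in G85R and H2-Eb1, the only other gene tested, did not pass. H2-DMa (Entrez Gene 14998), a chain of the peptide exchanger H2-DM, measured 17.7 and 14.6 RPKM in wild-type against 7.61 and 8.68 in G85R, from an estimated 742, 647, 291 and 352 reads. Wild-type was 1.98 times G85R with no overlap, and the log2 fold change was -0.97 (SE 0.14, limma adjusted p = 0.0480). The call was lost without wild-type replicate 1 (limma adjusted p = 0.0714) and without G85R replicate 1 (0.0633), with values of -0.83 and -0.88. It was lost too with eBayes without a trend, a minimum mean RPKM of 5, no filter, quantile normalization, rescaling by the median ratio (limma adjusted p from 0.0525 to 0.458) and the log-linear test. H2-DMb1, the partner chain of the exchanger, was under the level for testing, at 0.0636 and 0.359 in wild-type against 0.209 and 0.459 in G85R. Of the windows of H2-DMb1, 18.1% recur exactly elsewhere and 48.9% with up to 2 mismatches in the MHC interval. The part of this sharing in its low values was not tested. H2-Eb1, a class II beta chain, measured 0.699 and 1.26 in wild-type against 1.44 and 1.37 in G85R (log2 fold change 0.53, SE 0.30, limma adjusted p = 0.601). Its values did not overlap but came from 32 to 62 reads, and it reached the level for testing only through G85R. H2-Aa, H2-Ab1, H2-Oa, H2-Ob and H2-Eb2 stayed under 1 RPKM in every library, and H2-Ea was listed at 0. Over all 9 class II entries the sum was 19.5 and 16.6 in wild-type against 10.2 and 11.5 in G85R, most of it H2-DMa.

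Of the 28 untested entries, 13 were listed at 0 in all 4 libraries, 11 of them non-classical class I genes of the Q, T and M regions. The other 15 had between 0 and 47 estimated reads in a library. Only H2-Q2 reached 1 RPKM in a library, at 1.38 in wild-type 2 against 0.0934 in wild-type 1, 0.273 in G85R 1 and 0.257 in G85R 2. H2-Q7, whose promoter holds both motifs, was seen in wild-type 1 alone, at 0.102 RPKM from 4 estimated reads, with 46.6% of its windows repeated exactly elsewhere. At these depths no difference was detectable for most of these entries.

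The spread within genotypes was uneven across the module. For the 10 tested genes that lie in the MHC interval (3.57 Mb of chromosome 17 in NCBIM37), the 2 wild-type libraries differed by a median of 0.46 on the log2 scale, against 0.14 for the 75 other tested entries of the interval and 0.16 for all tested entries. The same medians between the 2 G85R libraries were 0.16, 0.14 and 0.15. Wild-type 1 was at least 4-fold below each of the other 3 libraries in 7 tested entries, and 2 of these were H2-D1 and H2-T23. Corresponding counts for the other libraries were 7 in wild-type 2, 6 in G85R 1 and 4 in G85R 2, with no antigen presentation gene among them. Wild-type 1 had 23541858 estimated reads, within the range of the other libraries.

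**Figure D4:**
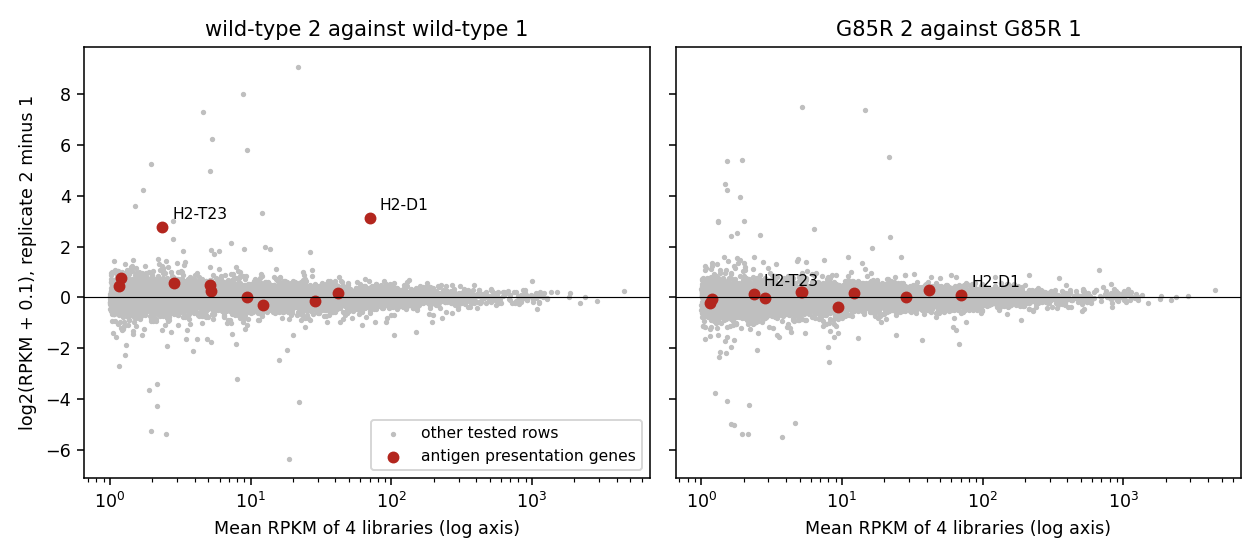
Difference between the 2 libraries of each genotype, as log2(RPKM + 0.1) of replicate 2 minus replicate 1, against mean RPKM (log axis), for all tested entries (grey) and the tested antigen presentation genes (red). H2-D1 (3.14) and H2-T23 (2.78) stand apart in wild-type, whereas no gene of the module does so in G85R.

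Differences were also seen in neighboring entries that are not among the antigen presentation genes defined above, in windows chosen after the values were seen. In the MHC interval, 3 of the 75 other tested entries passed (4.0%): Hspa1b, an inducible Hsp70 gene, was higher in G85R, and AK004150 and BC023719 were lower. Hspa1b measured 0.986 and 1.29 RPKM in wild-type against 4.40 and 4.44 in G85R. Within 5 Mb of B2m, 4 of 74 other tested entries placed on NCBIM37 passed (5.41%), of which Ell3 and Ndufaf1 were higher and Pla2g4e and Gchfr lower in G85R. Ell3, an elongation factor gene 0.709 Mb from B2m, measured 1.34 and 1.33 in wild-type against 4.65 and 4.28 in G85R. For comparison, 0.642% of all tested entries passed, and 0.604% of those that could be placed. Among the placed entries, 1.02% passed on chromosome 2 and 2.01% on chromosome 17, with these windows included.

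The genes most like B2m and H2-D1 over the 4 libraries were sought among 7842 other entries with a mean RPKM of at least 5, by the largest difference in centered log2(RPKM + 0.1). Closest to B2m was Dcxr, a dicarbonyl and xylulose reductase, with a largest difference of 0.04 and values of 16.3, 18.1, 55.0 and 63.7 RPKM. After it came AK183458 (0.43), Mrps10 (0.46), Card9 (0.50) and an Hbb-b1 entry (0.50). No gene followed H2-D1 closely, and the nearest were Sprr1a (0.93), A730008H23Rik (1.14), Ocel1 (1.32), AK182887 (1.39) and Mrps10 (1.42). Of these, Sprr1a, a gene induced in injured neurons, measured 1.56 and 7.29 in wild-type against 9.48 and 10.7 in G85R.

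Other genes of the pathway were examined in 7 lists, whose 55 tested entries gave 0 calls by limma, 7 at an unadjusted p under 0.05, and 0 by voom or the log-linear test. Over all tested entries 11.0% had an unadjusted p under 0.05. Their median log2 fold change was 0.06. Of the peptide loading and trimming list, 8 genes were tested, led by the endoplasmic reticulum chaperones Calr, Hspa5 and Canx. Calr measured 240 and 200 RPKM in wild-type against 242 and 176 in G85R, Hspa5 187 and 172 against 180 and 147, and Canx 148 and 138 against 137 and 141. No gene of the list had an unadjusted p under 0.05, and these 3 overlapped between genotypes.

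Of the immunoproteasome list (the inducible subunits, their constitutive counterparts and the activators), 7 genes were tested. The constitutive subunit Psmb6 measured 233 and 232 RPKM in wild-type against 280 and 253 in G85R, Psmb7 242 and 212 against 261 and 240, and the activator Psme3 53.7 and 48.2 against 57.7 and 56.2. Log2 fold changes were 0.20, 0.14 and 0.16, and none had an unadjusted p under 0.05. Of the inducible subunits, Psmb8 (0.633 to 0.809 RPKM) and Psmb9 (0.28 to 0.849) were under the level for testing. The inducible Psmb10 measured 27.9 and 29.3 in wild-type against 29.9 and 30.7 in G85R (log2 fold change 0.08, SE 0.10, limma adjusted p = 0.861). Of the regulators of class I transcription and interferon signaling, 22 were tested with a median of 0.00. Jak1 measured 102 and 99.9 in wild-type against 83.2 and 96.2 in G85R, Stat3 45.4 and 49.2 against 47.1 and 49.6, and Ifngr2 27.3 and 27.5 against 26.5 and 25.6.

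Of the interferon-stimulated list, only 4 of 37 entries had a mean RPKM of at least 1. Lgals3bp, a secreted glycoprotein induced by interferon, measured 12.0 and 17.5 RPKM in wild-type against 22.7 and 28.7 in G85R (log2 fold change 0.81, SE 0.20, limma adjusted p = 0.184), the only member of the 4 with an unadjusted p under 0.05. Eif2ak2, the kinase PKR, measured 3.65 and 3.76 against 4.08 and 4.13, and Samhd1 2.63 and 2.74 against 2.67 and 2.33. None of the 4 passed after adjustment.

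Of the class II partner list, all 4 tested genes had higher values in both G85R libraries, 3 of them with an unadjusted p under 0.05, and none passed after adjustment. Over all tested entries, 41.2% did not overlap and 11.0% had such a p. The 3 were the lysosomal proteases Ctsb (208 and 221 RPKM in wild-type, 249 and 258 in G85R), Ctsl (46.4 and 43.2 against 65.3 and 53.8) and Ctss (5.61 and 4.95 against 13.8 and 6.64). Limma adjusted p values were 0.416, 0.302 and 0.387. Ctss is also a marker of the microglia and macrophage list and was highest in G85R 1. Of the 4 tested class I-like genes encoded outside the H2 region, Cd1d1, which presents lipids, measured 2.93 and 2.79 in wild-type against 2.23 and 2.02 in G85R (limma adjusted p = 0.435). Hfe, an iron regulator that binds B2m, measured 3.91 and 4.28 against 4.18 and 6.20, and Fcgrt, the neonatal Fc receptor and also a B2m partner, 2.12 and 1.80 against 2.69 and 2.40.

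Of the list of class I partners in neurons and on the cell surface, 6 genes were tested. Tfrc, the transferrin receptor, to which Hfe binds, measured 53.4 and 44.5 RPKM in wild-type against 73.1 and 72.3 in G85R (log2 fold change 0.58, SE 0.12, limma adjusted p = 0.122). Rab11a, a recycling endosome GTPase, measured 130 and 117 against 120 and 127. Tyrobp, the signaling adaptor of myeloid cells, measured 1.39 and 1.48 in wild-type against 5.29 and 1.93 in G85R (limma adjusted p = 0.405). The excess of Tyrobp lay mainly in G85R 1.

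Captured cell bodies can carry RNA of their neighbors, and fewer cells of a type and less RNA per cell cannot be told apart in these libraries. All 17 motor neuron markers were tested, and their summed RPKM was 10300 to 11000 in wild-type and 9200 to 10700 in G85R, led by the neurofilament genes Nefl, Nefm and Nefh. Of the 17, 1 had a higher mean in G85R, 6 were lower without overlap, and the median log2 fold change was -0.18. None passed in limma, whereas 3 (Prph, Slit2 and Ret) had an unadjusted p under 0.05, as lower in G85R, and 2 passed in the log-linear test. For comparison with this and the other marker lists, 41.2% of all tested entries did not overlap and 11.0% had an unadjusted p under 0.05. Of the microglia and macrophage list, whose cells express class I and II genes strongly, 13 of 20 were tested and all 13 had a higher mean in G85R. The median log2 fold change over all tested entries was -0.02. Of the 13, 7 were higher without overlap. None of the 13 passed in limma, 4 had an unadjusted p under 0.05 (C1qa, C1qc, Ctss and Tyrobp), and 0 passed in the log-linear test. The higher mean came from G85R 1 alone for Csf1r, Cx3cr1, Tmem119 and Trem2. In G85R 2 these lay below both wild-type libraries, the first 3 at 1.79, 0.87 and 1.04 RPKM. Trem2 and Fcer1g reached a mean of 1 RPKM only through G85R 1. Trem2 measured 1.07 and 0.804 in wild-type against 3.42 and 0.681 in G85R. Fcer1g measured 1.14 and 0.832 against 3.64 and 0.857. The 20 entries of the list summed to 49.7 and 52.2 in wild-type, 99.5 in G85R 1 and 57.8 in G85R 2. In G85R 1 and G85R 2, B2m measured 58.4 and 70.8 RPKM and H2-D1 measured 104 and 112. The part of microglial RNA in the result for B2m was not tested.

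The astrocyte list summed to 1070 and 1030 RPKM in wild-type, 1440 in G85R 1 and 1110 in G85R 2. Most of the sum was Aldoc, S100b and Glul, at 458, 412 and 155 in wild-type 1, so it says little of the lower genes. Its 12 tested genes gave 0 calls in limma, 2 at an unadjusted p under 0.05 (Gfap and S100b) and 2 in the log-linear test. Gfap, the astrocyte filament gene, measured 11.5 and 17.1 in wild-type, 91.9 in G85R 1 and 28.4 in G85R 2. Sums of the oligodendrocyte list were 950 to 1000 in wild-type and 915 to 1190 in G85R, and those of the endothelium and pericyte list 21.1 to 21.6 and 20.4 to 23.1. In the latter, Ly6a was higher and Cldn5 lower at an unadjusted p under 0.05. T and natural killer cell markers summed to less than 1 RPKM in each library, with Cd8a and Cd3g listed at 0. Both tested red blood cell entries, 2 entries of Hbb-b1, passed as higher in G85R (limma adjusted p = 0.00173 and 0.0466), the only limma calls among the 7 marker lists, and 1 of them passed in voom. The entry with the weaker call measured 0.489 and 0.613 RPKM in wild-type against 2.02 and 1.90 in G85R, and so reached a mean of 1 RPKM only through G85R. The list summed to 2.31 and 2.72 in wild-type against 13.6 and 12.7 in G85R, most of it Hbb-b1. Its other entries were too low to be tested. Of these, Alas2 measured 0.0707 and 0.0999 in wild-type against 0.678 and 0.57 in G85R. Slc4a1 reached at most 0.0428, and Hba-a2 was listed at 0 apart from 0.132 for 1 entry in G85R 1. The part of any of these cells in the results was not tested.

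**Figure D5:**
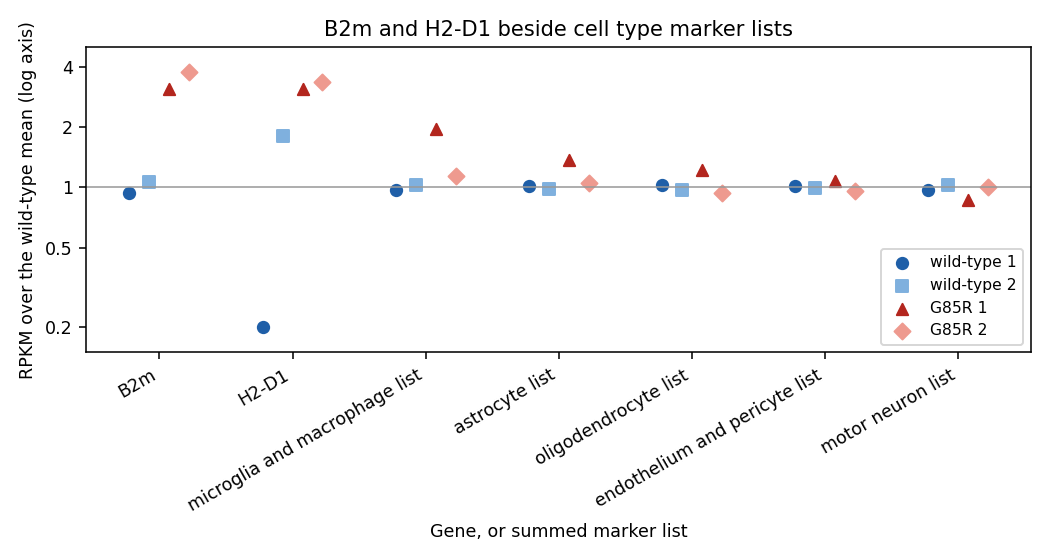
B2m, H2-D1 and the summed RPKM of 5 cell type marker lists in each library, divided by the mean of the 2 wild-type libraries (log axis). B2m is raised in both G85R libraries, and the microglia and macrophage list is raised mainly in G85R 1, at 99.5 RPKM against 57.8 in G85R 2.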

How the data were processed

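RNA of laser-captured motor neurons was sequenced as 75-base single-end reads. The authors mapped reads with Bowtie 0.12.3 to mm9 (NCBIM37) and splice junctions and estimated RPKM per UCSC gene cluster with Cufflinks. The deposited values are RPKM, and RPKM after addition of 1 read, whose difference gave estimated reads. Libraries were grouped by genotype from the labels. Limma 3.58.1 in R 4.3.3 (lmFit, eBayes with trend) was run on log2(RPKM + 0.1) for entries averaging at least 1 RPKM, and was tested on simulated data. Fold changes are on that scale and understate changes of low genes. Each limma p rests on the spread between 2 mice per genotype, drawn toward that of entries at a similar level. The log-linear test takes no account of the spread between mice. The members and gene lists were chosen with earlier results of these data known. Named were all tested genes, untested genes reaching 1 RPKM, and, of each pathway list, the 3 highest and those with an unadjusted p under 0.05. A gene of these lists that the rule would name is not reported here. Entries that were singled out otherwise were chosen after their values were seen. Sequence sharing used Gencode vM1 transcripts in windows of 75 bases, and promoters came from RefSeq. Because Cufflinks divides reads among isoforms, no counting intervals were computed. Alternatives covered the pseudocount, the filter, scaling, the model and each library left out.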

Additional observations from a re-analysis of the deposited data

How the results depend on the processing

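Over 183 recomputed log2 fold changes of the 11 tested genes, 1 changed sign: Tap2, which ranged from -0.31 to 0.085 with a library left out, positive without G85R replicate 2. Genes called higher in G85R numbered 1 (B2m) in the reported fit, 0 with no filter on low values, and 2 in the log-linear likelihood ratio test (B2m and H2-D1). Genes called lower numbered 2 (H2-M3 and H2-DMa) in the reported fit, 0 with eBayes without a trend, with a minimum mean RPKM of 5, with no filter, after quantile normalization or in the log-linear test, and 1 (H2-M3) after rescaling by the median ratio. With each library left out, where the lone library is assumed to vary like the other genotype, 1 to 3 were called higher and 1 to 2 lower.

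Replicate numbers are shared by the genotypes, and deviations of same-numbered libraries correlated at 0.22 over 11530 entries. Nothing in the labels says what a number shares. With the number as a replicate block, 3 antigen presentation genes were called higher (B2m, H2-D1 and H2-T23), and 1 gene of the interferon-stimulated list, 2 of the class II partner list and 1 of the neuronal class I partner list, against 0 in each list without it. Over all tested entries the block raised the calls from 74 to 527. With a library left out, these 3 lists held 0 to 1, 0 to 1 and 0 to 2 genes called higher.

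Medians by role, each over few genes, moved with the filter, other than the classical class I median. That median (2 genes, 1.34) was 0.44 without wild-type replicate 1 and 2.24 without wild-type replicate 2, and the non-classical median turned from -0.26 to 0.24 in the same settings. The non-classical median of -0.01 became -0.32 at a minimum mean RPKM of 0.1 and -1.24 at 5. The class II median of -0.22 became 0.53, -0.97 and, without a filter, 0.40. The light chain and loading median of 0.19 became 0.40 at 0.1 and without a filter, where the median of all members fell from 0.27 to 0.00. Depth limited the 28 untested entries, of which 23 had under 10 estimated reads in every library.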
